A study of Saccharomyces cerevisiae with 44 samples.

Results

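The replication profiles of ctf19∆ cells, which lack the kinetochore protein Ctf19, were set against those of WT cells, with 8 of the 44 samples of the series: 2 ctf19∆ IP, 2 WT IP, 2 ctf19∆ Total and 2 WT Total. A second comparison used 4 further IP samples, 2 of ctf19∆ fkh1∆ fkh2-dsm and 2 of fkh1∆ fkh2-dsm, and the IP and Total libraries of all 10 strains entered the fits. The assay is quantitative BrdU-IP-seq (QBU), in which newly made DNA takes up the thymidine analogue BrdU, is recovered with an antibody against BrdU (IP) and is sequenced, as is DNA of those cells that was not selected (Total). Budding yeast cells of these strains were arrested in G1 with α-factor at 23 °C and harvested 60 min after release into medium with 400 µg/mL BrdU and 200 mM hydroxyurea (HU), which starves forks of nucleotides, so that the IP signal marks the origins that fired early. The strains are haploid, congenic with W303, and carry a BrdU-incorporation cassette, at ura3 in ctf19∆ (strain HYy210, CTF19 replaced by the TRP1 gene of Kluyveromyces lactis) and at leu2 in WT (strain CVy63). In the second comparison it lies at ura3 in both strains, ctf19∆ fkh1∆ fkh2-dsm (HYy207) and fkh1∆ fkh2-dsm (HYy218), in which KANMX replaces FKH1 and FKH2 carries the fkh2-dsm allele. Each genotype is 1 strain, ctf19∆ being a spore segregant of a cross whose parents also carried dbf4∆C, fkh1∆ and fkh2-dsm alleles, so the deletion cannot be told apart from any other difference between ctf19∆ and WT. Nothing in the sources used here says that the replicates were separate cultures, so the p-values measure the spread between these samples, which may be technical.

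An origin fires when the Dbf4-dependent kinase (DDK), made of the kinase Cdc7 and its activating subunit Dbf4, acts on the helicase loaded there in G1. DDK is scarce, and origins that draw it in early fire early. Ctf19, a subunit of the COMA complex of the inner kinetochore, recruits Dbf4 to centromeres (CENs), and origins near a centromere are among the earliest to fire. The transcription factors Fkh1 and Fkh2 bring Dbf4 to many early origins along the chromosome arms.

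Origins were located as peaks in the mean of all 20 IP profiles of the series, each divided by its own library mean, which gave 152 origins outside the rDNA and the chromosome ends. The first origin on each side of each centromere was called CEN-flanking, 32 in all on 16 chromosomes, and the remaining 120 were called other origins. The CEN-flanking origins lay 1.18 to 22.9 kb from the centromere, with a median of 10.8 kb. Levels are the mean count of a 500-bp window in 50-bp bins divided by the mean bin of the library ("times the mean"), and log2 fold changes with their standard errors and adjusted p-values come from edgeR's quasi-likelihood test with Benjamini-Hochberg adjustment over all 152 origins, fitted to the 20 IP libraries of the 10 strains. An origin was called where the adjusted p was under 0.05. Positions are those of the deposited files, whose genome build is not given in the sources used here, and neighbouring genes, which serve only as landmarks, come from the RefSeq annotation of R64.

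The ctf19∆ IP libraries held 2487646 and 490889 counts, against 5952588 and 972119 in WT IP, and the Total libraries held 3659688 and 3801167 counts in ctf19∆, against 9857420 and 10216831 in WT. The median bin stood at 0.388 and 0.492 times the mean in ctf19∆ IP, against 0.243 and 0.248 in WT IP. The second libraries averaged only 2.03 (ctf19∆ IP) and 4.03 (WT IP) counts per bin, so their median bins are coarse. In 5-kb stretches without an origin peak the median was 0.428 times the mean in ctf19∆ IP, against 0.276 in WT IP. Relative to the library mean, the ground between peaks was thus higher in ctf19∆. The CTF19 gene had 0 counts in each of the 4 libraries of the strain, which allows up to 2.72 to 21.1% of the library mean, while WT Total had 76.0 and 82.1% of the mean over the gene and WT IP had 35.9 and 53.2%. The stretch without reads began at the first base of CTF19 and ended 10 bp before its last, which places the files on the coordinates of the gene table. A scan for stretches of at least 2 bins with 0 counts in both ctf19∆ Total libraries and at least 40 counts per bin in WT Total found 2 in the genome: CTF19, and 100 bp inside an arm origin of chromosome III described with the chromosome arms.

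Early replication was lower in ctf19∆ at nearly all origins that flank a centromere. In ctf19∆ IP the median CEN-flanking origin stood at 1.97 and 1.52 times the mean, against 14.8 and 17.0 in WT IP, and 31 of 32 were called lower and 0 higher (0 at an unadjusted p under 0.05). Over all origins the same call took in 76.3% lower and 1.32% higher, so the call alone sets the CEN-flanking origins little apart, and the size of the change carries the difference. Their median log2 fold change was -2.59, with quartiles of -4.41 and -1.21, against -0.71 for the other origins, with quartiles of -0.91 and -0.39. The adjusted p was at most 0.000319 for 30 of the 31. Within each library, the median CEN-flanking origin reached 0.282 ± 0.054 of the median other origin in ctf19∆ IP and 1.46 ± 0.08 in WT IP (SD, n = 2 each), and the libraries of the strains did not overlap. With 2 libraries a strain an exact two-sided permutation test cannot go below p = 0.33, so this ratio is given as values only. A lower level can mean that fewer cells fired the origin or that those that did had copied less around it, which cannot be told apart in bulk samples.

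Levels relative to the library mean depend on what else each library holds. The median log2 fold change over all origins was -0.77 on the library sum, 0.01 with TMM scaling and 0.21 with DESeq2 scaling. With TMM, 24 CEN-flanking origins were called lower and 1 higher, where 21.1% of all origins were lower and 11.2% higher. With DESeq2, 23 were called lower and 2 higher, where 19.1% of all origins were lower and 30.3% higher. All 23 were lower under each of these 3 scalings, and on 8 of the 16 chromosomes both flanking origins were. Scaling by the size of the matching Total library ended every call by edgeR: 0 CEN-flanking origins passed the adjusted test and 12 an unadjusted p under 0.05, with a median log2 fold change of -2.29. From replicate 1 to 2, IP depth fell from 5952588 to 972119 counts in WT and from 2487646 to 490889 in ctf19∆. Total depth went from 9857420 to 10216831 and from 3659688 to 3801167. The fit had no replicate term, so this gap between replicates counted as spread within a strain. Whether the gap accounts for the 0 calls was not tested. Peaks called without the ctf19∆ and WT libraries gave 31 CEN-flanking origins, all 31 lower on the library sum, with a median log2 fold change of -2.88. Of the 106 other origins of that set 74 were called lower too and 3 higher, so there as well the call alone sets the CEN-flanking origins little apart.

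The share of the WT level that remained in ctf19∆ ran from 1.58% to 109%, with a median of 16.3%, against a median of 61.3% at the other origins. Both ctf19∆ samples lay below both WT samples at 31 of the 32 origins, and at 134 of all 152. The share was under 10% at 12 CEN-flanking origins, 10 to 25% at 10, 25 to 50% at 4 and 50% or more at 6. Of the other origins, 4 of 120 kept under 25%. The origin nearer to the centromere kept less than its partner across the centromere on 13 of the 16 chromosomes, the exceptions being VI, IX and XVI. The 15 CEN-flanking origins within 10 kb of the centromere kept a median of 6.69%, and the 17 farther out kept 24.2%. Across the 32 origins the share rose with distance (Pearson's r = 0.41, Spearman's rho = 0.58), a description over points that share the same 4 libraries, and the share bore little relation to the WT level (Pearson's r = -0.08, Spearman's rho = 0.13).

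**Figure D1:**
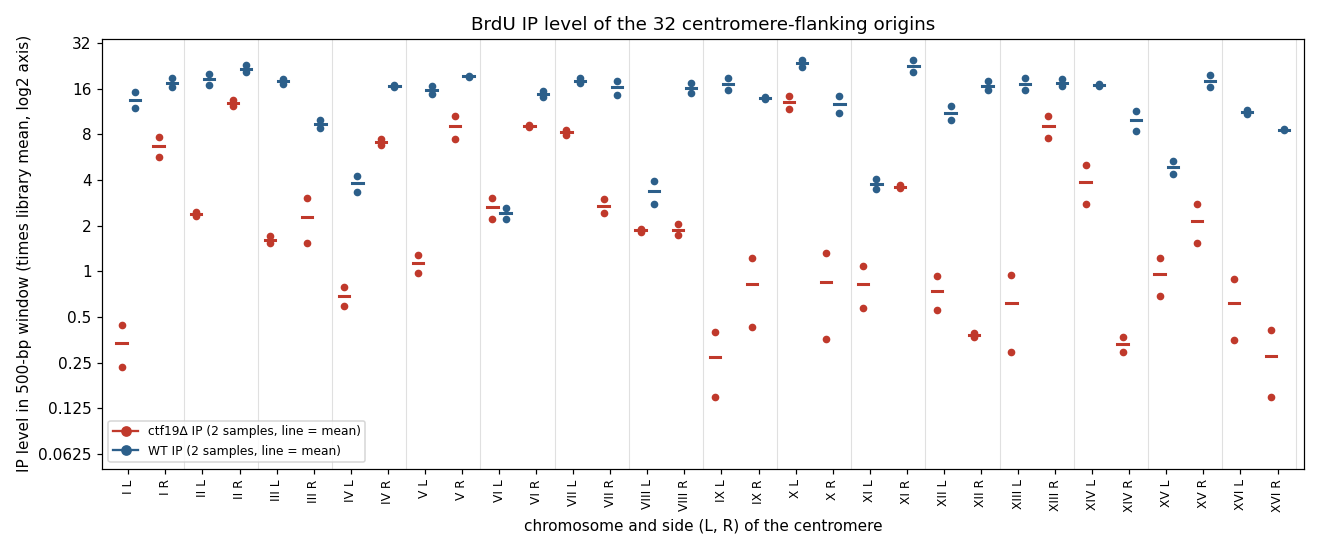
IP level of the 32 CEN-flanking origins (times the library mean, log2 axis) in ctf19∆ IP and WT IP by chromosome and side, with a point per sample and a line at the mean. In 31 of 32 origins both ctf19∆ samples lie below both WT samples, and the left origin of chromosome VI is the exception.

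On 7 chromosomes both flanking origins kept under 25% of the WT level. On chromosome III the left origin (bases 108601 to 109100, between LDB16 and PGS1, 5.98 kb from the centromere) had 1.70 and 1.52 times the mean in ctf19∆ IP, against 17.2 and 18.6 in WT IP, a log2 fold change of -3.44 ± 0.20. To the right, an origin (bases 131651 to 132150, between RVS161 and ADY2, 17.1 kb from the centromere) had 3.02 and 1.52 times the mean in ctf19∆ IP, against 8.76 and 9.98 in WT IP, a log2 fold change of -1.92 ± 0.23. They kept 9.01% and 24.2% of the WT level, the lower share on the side nearer to the centromere. On chromosome IX the left origin (bases 341401 to 341900, between FAA3 and URM1, 14.1 kb from the centromere) had 0.398 and 0.148 times the mean in ctf19∆ IP, against 15.6 and 18.9 in WT IP, a log2 fold change of -5.64 ± 0.29. Across the centromere, the right origin (bases 356851 to 357350, between SGN1 and MPH1, 1.31 kb from the centromere) had 0.427 and 1.23 times the mean in ctf19∆ IP, against 14.1 and 13.7 in WT IP, a log2 fold change of -4.51 ± 0.27. Both ctf19∆ means were below the library mean, and the left origin, although the more distant one, kept only 1.58%, the lowest share of the 32. On chromosome XI the left origin (bases 416851 to 417350, between URB1 and ARC19, 22.9 kb from the centromere) had 0.573 and 1.08 times the mean in ctf19∆ IP, against 3.48 and 4.05 in WT IP, a log2 fold change of -2.38 ± 0.38. Its partner on the right (bases 447801 to 448300, between ECM9 and YKR005C, 8.08 kb from the centromere) had 3.54 and 3.69 times the mean in ctf19∆ IP, against 20.5 and 24.7 in WT IP, a log2 fold change of -2.65 ± 0.15. The left origin was a weak one in WT already, and the pair kept 22.0% and 16.0%. On chromosome XII the left origin (bases 139351 to 139850, in SPO75, 11.2 kb from the centromere) had 0.553 and 0.934 times the mean in ctf19∆ IP, against 9.88 and 12.2 in WT IP, a log2 fold change of -4.08 ± 0.28. The right origin (bases 156701 to 157200, in CMS1, 6.20 kb from the centromere) had 0.369 and 0.393 times the mean in ctf19∆ IP, against 15.5 and 17.9 in WT IP, a log2 fold change of -5.47 ± 0.30. At 6.73% and 2.28% of WT both fell below the library mean.

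On chromosome XIV the left origin (bases 609151 to 609650, in HEF3, 19.7 kb from the centromere) had 4.99 and 2.75 times the mean in ctf19∆ IP, against 16.7 and 17.2 in WT IP, a log2 fold change of -2.04 ± 0.22. To the right, an origin (bases 635701 to 636200, in SWM2, 6.86 kb from the centromere) had 0.369 and 0.295 times the mean in ctf19∆ IP, against 8.42 and 11.3 in WT IP, a log2 fold change of -4.79 ± 0.31. The nearer, right origin kept 3.36% and the left one 22.8%. On chromosome XV the left origin (bases 308401 to 308900, in RCL1, 17.8 kb from the centromere) had 1.22 and 0.689 times the mean in ctf19∆ IP, against 4.36 and 5.36 in WT IP, a log2 fold change of -2.19 ± 0.28. Across the centromere, the right origin (bases 337001 to 337500, in DNL4, 10.8 kb from the centromere) had 2.79 and 1.52 times the mean in ctf19∆ IP, against 16.4 and 19.7 in WT IP, a log2 fold change of -2.93 ± 0.22. DNL4 encodes DNA ligase IV, and the origin within it kept 11.9%, while the weaker left origin kept 19.7%. On chromosome XVI the left origin (bases 553151 to 553650, between ULA1 and SNF8, 2.63 kb from the centromere) had 0.349 and 0.885 times the mean in ctf19∆ IP, against 10.9 and 11.5 in WT IP, a log2 fold change of -4.57 ± 0.27. Its partner on the right (bases 563001 to 563500, in YPR003C, 7.22 kb from the centromere) had 0.408 and 0.148 times the mean in ctf19∆ IP, against 8.48 and 8.67 in WT IP, a log2 fold change of -4.61 ± 0.34. These 2 origins, both within 7.22 kb of the centromere, kept 5.51% and 3.24%, and in none of these 7 chromosomes did the samples of the 2 strains overlap.

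On 8 chromosomes 1 flanking origin fell below 25% of WT while its partner kept more. All these partners were called lower on the library sum. With TMM and with DESeq2 those on chromosomes II, V, VII, VIII, X and XIII were not called lower. The partner on chromosome IV was called lower with TMM but not with DESeq2. On chromosome I the left origin (bases 147001 to 147500, in VPS8, 4.44 kb from the centromere) had 0.233 and 0.443 times the mean in ctf19∆ IP, against 11.9 and 15.1 in WT IP, a log2 fold change of -5.60 ± 0.25. The right origin (bases 159401 to 159900, in SEN34, 7.96 kb from the centromere) had 7.66 and 5.66 times the mean in ctf19∆ IP, against 16.3 and 18.7 in WT IP, a log2 fold change of -1.35 ± 0.16. The left origin kept 2.51% and the right one 38.0%, although both lie within 7.96 kb of the centromere. On chromosome II the left origin (bases 236751 to 237250, between HTB2 and ECM15, 1.18 kb from the centromere) had 2.32 and 2.46 times the mean in ctf19∆ IP, against 16.8 and 19.9 in WT IP, a log2 fold change of -2.95 ± 0.15. To the right, an origin (bases 254101 to 254600, between FLR1 and HHF1, 16.2 kb from the centromere) had 12.3 and 13.5 times the mean in ctf19∆ IP, against 20.4 and 22.8 in WT IP, a log2 fold change of -0.76 ± 0.11. The left origin, beside the histone H2B gene HTB2 and the closest of all to its centromere, kept 13.0%, while the right one, beside the histone H4 gene HHF1, kept 59.4% and was not called with TMM. On chromosome IV the left origin (bases 443751 to 444250, between ATP16 and MCD1, 5.72 kb from the centromere) had 0.786 and 0.590 times the mean in ctf19∆ IP, against 3.35 and 4.22 in WT IP, a log2 fold change of -2.35 ± 0.26. Across the centromere, the right origin (bases 462701 to 463200, between TRP1 and GAL3, 13.2 kb from the centromere) had 6.77 and 7.43 times the mean in ctf19∆ IP, against 16.3 and 16.8 in WT IP, a log2 fold change of -1.23 ± 0.16. MCD1, next to the left origin, encodes a cohesin subunit, and the pair kept 18.2% and 42.9%. On chromosome V the left origin (bases 145201 to 145700, between YEA6 and VAB2, 6.77 kb from the centromere) had 0.971 and 1.28 times the mean in ctf19∆ IP, against 14.7 and 16.6 in WT IP, a log2 fold change of -3.89 ± 0.23. Its partner on the right (bases 173351 to 173850, between YER010C and TIR1, 21.4 kb from the centromere) had 10.6 and 7.43 times the mean in ctf19∆ IP, against 19.2 and 19.3 in WT IP, a log2 fold change of -1.06 ± 0.15. The shares were 7.17% on the left and 46.7% on the right.

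On chromosome VII the left origin (bases 484251 to 484750, between BRP1 and YGL006W-A, 12.3 kb from the centromere) had 7.92 and 8.56 times the mean in ctf19∆ IP, against 17.3 and 18.8 in WT IP, a log2 fold change of -1.14 ± 0.17. The right origin (bases 508651 to 509150, between STF2 and SEC9, 12.1 kb from the centromere) had 2.98 and 2.41 times the mean in ctf19∆ IP, against 14.6 and 17.9 in WT IP, a log2 fold change of -2.54 ± 0.19. The pair is nearly symmetric about the centromere, yet the left origin kept 45.7% and the right one 16.6%. On chromosome VIII the left origin (bases 90651 to 91150, in YHL009W-B, 14.6 kb from the centromere) had 1.89 and 1.82 times the mean in ctf19∆ IP, against 2.78 and 3.95 in WT IP, a log2 fold change of -0.82 ± 0.37. To the right, an origin (bases 116201 to 116700, between YNCH0003C and STP2, 10.9 kb from the centromere) had 2.04 and 1.72 times the mean in ctf19∆ IP, against 15.0 and 17.4 in WT IP, a log2 fold change of -3.06 ± 0.24. The left origin kept 55.2% and was the weakest call among the 31, at an adjusted p of 0.0478 with a range of 0.00261 to 0.955 over its alternatives other than scaling by the Total library. On chromosome X the left origin (bases 416601 to 417100, between YNCJ0019C and NOP9, 19.5 kb from the centromere) had 11.7 and 14.4 times the mean in ctf19∆ IP, against 22.3 and 24.7 in WT IP, a log2 fold change of -0.87 ± 0.14. Across the centromere, the right origin (bases 441851 to 442350, in MRX12, 5.76 kb from the centromere) had 0.359 and 1.33 times the mean in ctf19∆ IP, against 11.0 and 14.2 in WT IP, a log2 fold change of -4.40 ± 0.37. The left origin kept 55.4%, while the right one kept 6.69%. On chromosome XIII the left origin (bases 263301 to 263800, in YML003W, 4.83 kb from the centromere) had 0.941 and 0.295 times the mean in ctf19∆ IP, against 15.7 and 18.8 in WT IP, a log2 fold change of -4.44 ± 0.27. Its partner on the right (bases 286501 to 287000, between ANY1 and HXT2, 18.4 kb from the centromere) had 7.53 and 10.6 times the mean in ctf19∆ IP, against 16.5 and 18.5 in WT IP, a log2 fold change of -0.99 ± 0.16. The left origin kept 3.58% and the right one, beside the hexose transporter gene HXT2, 51.7%.

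On chromosome VI the left origin (bases 142951 to 143450, in YFL002W-A, 5.56 kb from the centromere) had 2.22 and 3.05 times the mean in ctf19∆ IP, against 2.21 and 2.61 in WT IP, a log2 fold change of 0.09 ± 0.24. The right origin (bases 167151 to 167650, between MIC19 and SUP11, 18.6 kb from the centromere) had 9.25 and 8.90 times the mean in ctf19∆ IP, against 14.1 and 15.4 in WT IP, a log2 fold change of -0.69 ± 0.16. Here neither flanking origin fell below 25%, and the left one, at 109%, was not called on the library sum (adjusted p = 0.72) and was higher by 0.87 on the TMM scale. The right one was called lower on the library sum, was not called with TMM and was called higher with DESeq2. The left origins of chromosomes VI and VIII lie inside YFL002W-A and YHL009W-B, genes of Ty retrotransposons, which are repeated elements, so reads counted there may come from other copies. The next origin outward on the left of chromosome VI (bases 135751 to 136250, in MSH4, 12.8 kb from the centromere; MSH4 acts in meiotic crossing over) had 0.912 and 0.836 times the mean in ctf19∆ IP, against 10.3 and 11.1 in WT IP, and so kept 8.20% of WT.

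Beyond the flanking pair, large falls were found at single origins up to 34.3 kb away, and farther out the median change was smaller. Within 25 kb of a centromere lay 37 origins, the 32 flanking ones and 5 further out, and 35 of them were called lower on the library sum, 27 with TMM and 26 with DESeq2, where 76.3%, 21.1% and 19.1% of all origins were lower. Their median log2 fold change was -2.54, against -0.68 for the 110 origins beyond 35 kb, of which 78 were called lower on the library sum, 3 with TMM and 1 with DESeq2. The origin left of CEN4 between YNCD0005C and YDL007C-A (14.8 kb) had 3.20 and 3.05 times the mean in ctf19∆ IP, against 17.0 and 19.3 in WT IP. The origin right of CEN11 between the peroxisomal β-oxidation gene FOX2 and YNCK0016W (17.5 kb) had 0.903 and 1.48 times the mean in ctf19∆ IP, against 10.7 and 12.2 in WT IP. These, with the MSH4 origin, were 3 of the 5, and their log2 fold changes were -2.53 ± 0.18, -3.42 ± 0.29 and -3.58 ± 0.24. The remaining 2 stood apart from them: the origin between CDC15 and PAU7 at 24.0 kb changed by -0.94 ± 0.13, just beyond the lower quartile of the other origins, and the one between TDH2 and MET3 on the right of CEN10 (18.8 kb) had 2.92 and 2.46 times the mean in ctf19∆ IP, against 3.31 and 3.08 in WT IP. The TDH2 origin was not called on the library sum or with TMM, and was called higher with DESeq2 (0.73). From 25 to 35 kb, 3 of 5 origins were called lower and 1 higher on the library sum, a share of lower calls below that of all origins, and 2 were called lower with TMM. The origin between YNCH0004C and YNCH0005W, 28.1 kb right of CEN8, had 1.74 and 1.72 times the mean in ctf19∆ IP, against 6.82 and 7.00 in WT IP. The origin between MLG1 and GCV1, 34.3 kb right of CEN4, had 2.95 and 2.85 times the mean in ctf19∆ IP, against 9.46 and 10.6 in WT IP. Both were lower on the library sum, with TMM and with DESeq2. In the same range, the origin in the glutaredoxin gene GRX7 (28.7 kb right of CEN2) moved the other way, with 4.00 and 3.34 times the mean in ctf19∆ IP, against 1.72 and 1.19 in WT IP, and was called higher under all 3 scalings. The origin in ALK2, 29.2 kb left of CEN2, was not called on the library sum (log2 fold change 0.39 ± 0.23). It was called higher with TMM (1.17) and with DESeq2 (1.36). In the second comparison, ctf19∆ fkh1∆ fkh2-dsm against fkh1∆ fkh2-dsm, the origins at 28.1 and 34.3 kb were not called (0.08 ± 0.38 and -0.15 ± 0.27). They had 1.49 and 0.858, and 3.55 and 3.00, times the mean in fkh1∆ fkh2-dsm IP. The origins at 14.8, 17.5 and 12.8 kb fell there too, by -3.44, -5.34 and -3.21.

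**Figure D2:**
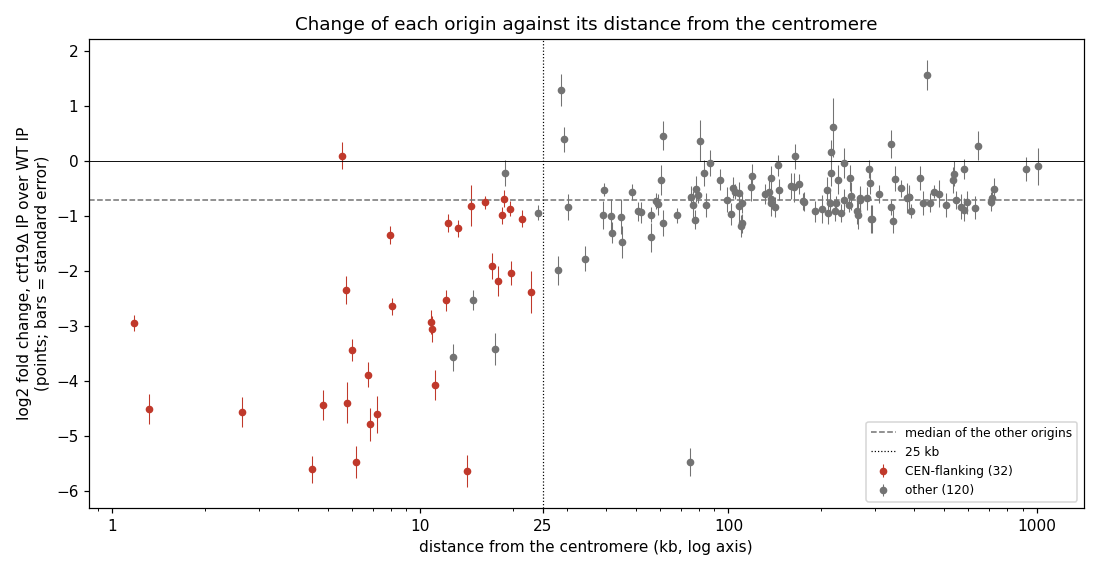
Log2 fold change of ctf19∆ IP over WT IP (points, with standard errors) against distance from the centromere (kb, log axis) for the 32 CEN-flanking and 120 other origins. Large falls crowd to the left of 25 kb, and 1 other origin, 75.1 kb from its centromere, stands at -5.47.

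The same reach appeared without reference to origins, when the genome was divided into 5-kb tiles. Tiles within 5 kb of a centromere averaged 0.559 and 0.592 times the mean in ctf19∆ IP, against 2.60 and 2.67 in WT IP, and tiles 10 to 15 kb away averaged 1.48 and 1.43 in ctf19∆ IP, against 3.25 and 3.35 in WT IP. At 20 to 25 kb the averages were 1.28 and 1.25 in ctf19∆ IP and 1.46 and 1.42 in WT IP, and from 30 to 35 kb they were higher in ctf19∆ IP, at 0.797 and 0.808, against 0.699 and 0.678 in WT IP. Of the 160 tiles within 25 kb of a centromere, 84 were called lower in ctf19∆ (96 with TMM), where 7.68% of all 2371 tiles were lower (14.2% with TMM). By distance the share of tiles called lower was 68.8% within 5 kb, 65.6% from 5 to 10 kb, 59.4% from 10 to 15 kb, 43.8% from 15 to 20 kb, 25.0% from 20 to 25 kb, 28.1% from 25 to 30 kb and 6.25% from 30 to 35 kb. Farther out the share was 3.23% from 35 to 40 kb, 12.5% from 40 to 50 kb (20.3% with TMM), 6.43% from 50 to 100 kb and 3.33% beyond 100 kb. Of the 160 tiles, 39 were called higher on the library sum and 4 with TMM, where 57.1% and 10.4% of all tiles were higher. At 20 to 25 kb more tiles were higher than lower on the library sum, 16 against 8 of 32, and with TMM 1 was higher and 9 were lower. Each chromosome had between 3 and 7 of its 10 tiles within 25 kb called lower, with 5 higher beside 4 lower on chromosome II and 3 of each on chromosome VIII.

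**Figure D3:**
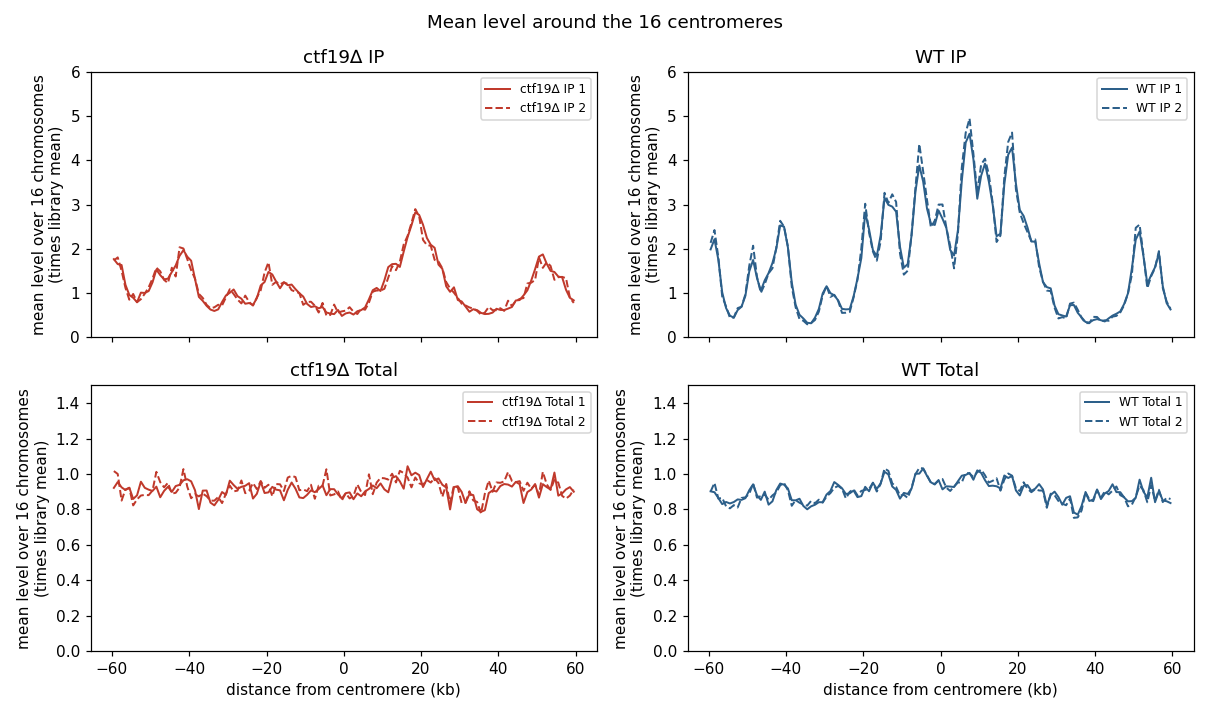
Mean level over the 16 chromosomes (times the library mean) against distance from the centromere (kb) in ctf19∆ IP, WT IP, ctf19∆ Total and WT Total, with a line per sample. In ctf19∆ IP the signal sinks towards the centromere, where WT IP is high, and the 2 samples of each strain run close together.

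The unselected DNA gave a separate measure of the same replication, since a region that has replicated holds more copies per cell and no antibody is involved. In 5-kb windows on the CEN-flanking origins, ctf19∆ Total had a median of 0.918 and 0.973 times the mean, against 1.17 and 1.20 in WT Total, while the other origins had 1.16 and 1.19 in ctf19∆ Total, against 1.12 and 1.14 in WT Total. In ctf19∆, 16 of 32 CEN-flanking origins were called lower by edgeR and 0 higher (0 at an unadjusted p under 0.05, and 0 with TMM or DESeq2), where 13.2% of all origins were lower and 10.5% higher, and their log2 fold changes ran from -0.50 to -0.18. All 16 were also lower with TMM and DESeq2 scaling, and all 16 were among the 22 that kept under 25% of the WT level in IP. None of the 10 that kept 25% or more was called in Total on the library sum. With TMM 20 CEN-flanking origins were called lower in Total, where 26 of all 152 were. With DESeq2 there were 19, where 24 of all 152 were. Among those called by edgeR with TMM was the left origin of chromosome VI (adjusted p = 0.0486), which kept 109% in IP. The largest of these falls was at the left origin of chromosome XIII, which had 0.885 and 0.870 times the mean in ctf19∆ Total, against 1.18 and 1.31 in WT Total. Next came the left origin of chromosome II, with 0.902 and 0.910 times the mean in ctf19∆ Total, against 1.21 and 1.33 in WT Total. By contrast, the left origin of chromosome X, which kept over 50% in IP, had 1.35 and 1.47 times the mean in ctf19∆ Total, against 1.5 and 1.49 in WT Total. In Total 4 other origins were called lower (6 with TMM and 5 with DESeq2), 3 of the 4 being the origins within 25 kb of CEN4, CEN6 and CEN11 named above. The sign of the change was negative at 27 of the 32 CEN-flanking origins, and both ctf19∆ samples lay below both WT samples at 23 of the 32 and at 37 of all 152. Across the 152 origins the changes in Total and in IP moved together (Pearson's r = 0.82, Spearman's rho = 0.67), a description over points that share strains and depth.

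**Figure D4:**
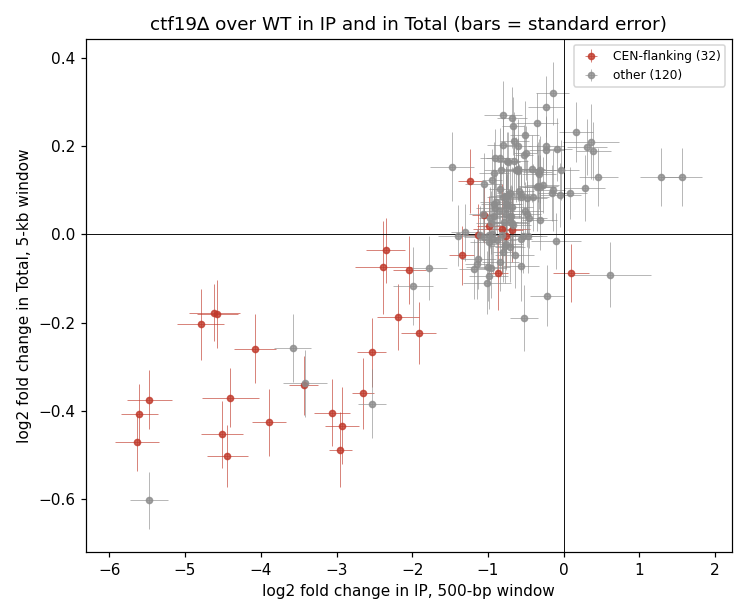
Log2 fold change of ctf19∆ over WT in IP (x axis, 500-bp windows) and in Total (y axis, 5-kb windows) for the 32 CEN-flanking and 120 other origins, with standard errors. The 16 CEN-flanking origins called lower in Total lie between -0.50 and -0.18 on its axis, and those that fell least in IP lie near 0.

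Along the chromosome arms, the peaks of the other origins were flatter in ctf19∆, and whether they were also lower depended on the scaling. In 500-bp windows 85 of 120 were called lower and 2 higher on the library sum, a share close to that of all origins, with TMM 8 were called lower and 16 higher, and with DESeq2 6 lower and 44 higher, so at most arm origins the 3 scalings shared no call. The median level was 6.14 and 6.27 times the mean in ctf19∆ IP, against 10.6 and 11.2 in WT IP. The shape of the peaks differed as well. Within 0.5 kb of the peak centre the other origins had 6.29 and 6.62 times the mean in ctf19∆ IP, against 10.4 and 10.8 in WT IP, while 3 to 5 kb away they had 2.04 and 2.06 in ctf19∆ IP, against 1.44 and 1.18 in WT IP. The ratio of ctf19∆ to WT was 0.608 at the centre, 0.828 at 1 to 2 kb, 1.22 at 2 to 3 kb and 1.57 at 3 to 5 kb, so relative to the library mean the arm peaks were lower at the centre and higher at their flanks in ctf19∆. Another scaling multiplies these ratios by a single factor and so moves the level of the peaks but not the change in the ratio with distance. At the CEN-flanking origins the ratio was 0.12 at the centre and 0.414 at 3 to 5 kb, and stayed below 1 throughout. In 10-kb windows, chosen after the data were seen, 55 other origins were called lower and 17 higher, with 55.9% of all origins lower and 11.2% higher, and the median of the other origins was -0.13 while that of the CEN-flanking ones remained at -2.18.

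**Figure D5:**
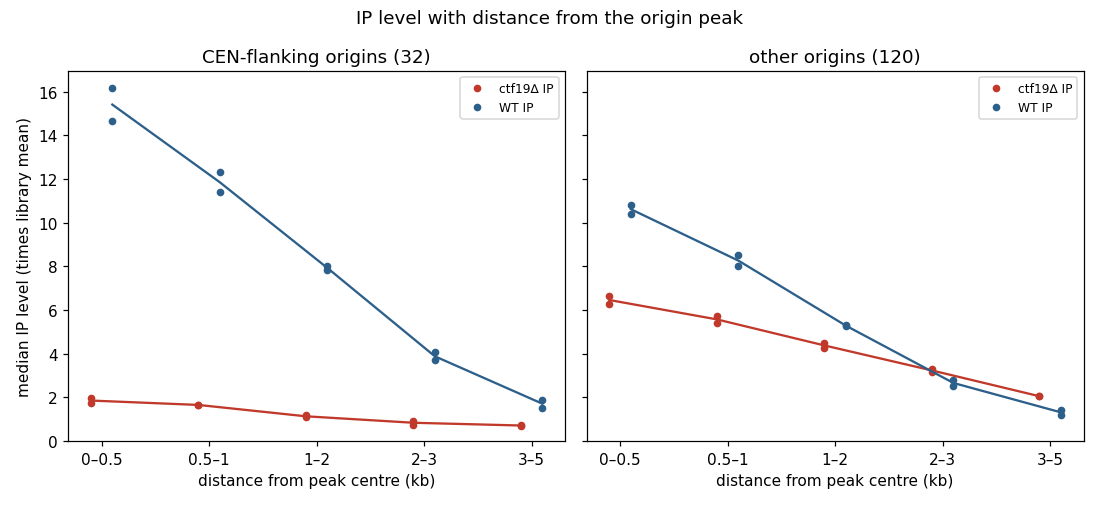
Median IP level (times the library mean) against distance from the peak centre (kb) at the 32 CEN-flanking and the 120 other origins, with a point per sample and a line at the mean of 2 samples. At the other origins ctf19∆ IP lies below WT IP within 2 kb and above it from 2 to 5 kb, and at the CEN-flanking origins it lies below throughout.

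Arm by arm, the sign of the median also depended on the scaling. Of the 20 arms with at least 3 other origins, all 20 had a median log2 fold change below 0 on the library sum, from -1.10 on the right arm of chromosome VIII to -0.23 on the left arm of XIV, whereas with TMM the arm medians ran from -0.32 to 0.54 and 5 were below 0. By distance from the centromere the median on the library sum was -2.53 for the 5 other origins within 25 kb, -0.995 for the 12 from 25 to 50 kb, -0.76 for the 22 from 50 to 100 kb, -0.59 for the 25 from 100 to 200 kb and -0.68 for the 56 beyond 200 kb. The 8 called lower with TMM all lay within 100 kb, being 3 of the 5, 4 of the 12 and 1 of the 22. In the 5-kb tiles 1353 were called higher in ctf19∆, 57.1% of all, but 852 without the first WT IP library and 246 with TMM (10.4%). The median tile rose by 0.58 on the log2 scale with the library sum and by 0.03 with TMM. Tiles without an origin peak had a median of 0.428 times the mean in ctf19∆ IP, against 0.276 in WT IP, and those with one had 3.61 in ctf19∆ IP, against 6.20 in WT IP.

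Lower under all 3 scalings were 6 other origins, of which 5 lay 12.8 to 34.3 kb from a centromere and have been described. The exception was the origin between APA1 and YCL049C on the left arm of chromosome III (bases 39451 to 39950, between APA1 and YCL049C, 75.1 kb from the centromere), which had 0.660 and 0.148 times the mean in ctf19∆ IP, against 22.8 and 26.1 in WT IP, a log2 fold change of -5.47 ± 0.25 and the lowest of all the other origins. In Total it had 0.871 and 0.909 times the mean in ctf19∆ Total, against 1.36 and 1.34 in WT Total. Here the ctf19∆ strain differed from WT in the DNA itself: bases 39501 to 39600 had 0 and 0 counts in the 2 ctf19∆ Total libraries, against 133 and 203 in WT Total. The same 100 bp had 1 and 4 counts in fkh1∆ Total, and 0 in both Total libraries of ctf19∆ fkh1∆ fkh2-dsm, of fkh1∆ fkh2-dsm and of dbf4∆C, while dbf4-Zn*1, dbf4-Zn*2 and their fkh1∆ double mutants had from 92 to 476. The fall of this origin therefore cannot be told apart from this difference in the DNA, which the strain's listed genotype does not name. In IP, fkh1∆ fkh2-dsm cells, which have CTF19 but no reads in these 100 bp, had 0.206 and 0.257 times the mean at this origin. With the CTF19 deletion, ctf19∆ fkh1∆ fkh2-dsm cells had 0.460 and 0.627.

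The 5 highest log2 fold changes among the other origins were at origins of at most 4.40 times the mean in WT IP. The origin between ADY4 and YNCL0032C on the right arm of chromosome XII, 442 kb from the centromere, had 2.83 and 5.46 times the mean in ctf19∆ IP, against 1.57 and 0.869 in WT IP, a log2 fold change of 1.56 ± 0.27. With the GRX7 origin it was the only one called higher under all 3 scalings. The remaining 3 did not pass the test on the library sum: the origin in YNL115C had 0.379 and 0.738 times the mean in ctf19∆ IP, against 0.369 and 0.124 in WT IP, and that between YNCN0010C and YNCN0011W had 2.42 and 4.33 times the mean in ctf19∆ IP, against 2.10 and 2.58 in WT IP. The last, in ALK2, which encodes a mitotic haspin kinase, had 5.35 and 5.71 times the mean in ctf19∆ IP, against 4.02 and 4.40 in WT IP. In IP the ALK2 origin and that between YNCN0010C and YNCN0011W were called higher with TMM and with DESeq2. The YNL115C origin was called higher with DESeq2 but not with TMM. The ALK2 origin, 29.2 kb left of CEN2, was called higher in Total by edgeR on the library sum (adjusted p = 0.0349) but not with TMM (adjusted p = 0.162), with 1.09 and 1.13 times the mean in ctf19∆ Total, against 1.02 and 0.937 in WT Total.

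The deletion was also present in a second pair of strains, ctf19∆ fkh1∆ fkh2-dsm and fkh1∆ fkh2-dsm, in which FKH1 is deleted and FKH2 carries the fkh2-dsm allele, and whose 4 IP libraries, already part of the peak calls and of the fit, share no library with the comparison of ctf19∆ with WT. Here 28 of 32 CEN-flanking origins were called lower by edgeR and 0 higher (1 at an unadjusted p under 0.05), where 24.3% of all origins were lower and 8.55% higher, and 28 were called lower with TMM as well. The median log2 fold change was -2.12 at the CEN-flanking origins and 0.29 at the other origins, of which 9 were called lower and 13 higher. In this pair the median CEN-flanking origin stood at 2.78 and 2.51 times the mean in ctf19∆ fkh1∆ fkh2-dsm IP, against 14.4 and 14.8 without the CTF19 deletion. All 28 were also called lower in ctf19∆ against WT, where 31 of the 32 were, so this overlap adds little. The 4 that did not pass were the right origin of chromosome II (-0.11 ± 0.12), both origins of chromosome VI (0.71 ± 0.32 left and -0.07 ± 0.17 right) and the left origin of chromosome VIII (0.34 ± 0.53). The right origin of chromosome II had 19.1 and 15.9 times the mean in ctf19∆ fkh1∆ fkh2-dsm IP, against 18.9 and 19.0 without the CTF19 deletion, and the samples of the 2 strains overlapped. The left origin of chromosome X had 3.88 and 4.19 times the mean in ctf19∆ fkh1∆ fkh2-dsm IP, against 10.1 and 12.8 without the CTF19 deletion, a log2 fold change of -1.49 ± 0.17.

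The effect of the deletion differed between the backgrounds at 15 CEN-flanking origins by the interaction test, 13 with a larger fall in FKH1 FKH2 cells and 2 with a larger fall in fkh1∆ fkh2-dsm cells. The same test called 65.1% of all origins, so this count says little about the CEN-flanking ones, and with TMM, where 18.4% of all were called, 5 fell more in FKH1 FKH2 cells and 7 fell more in fkh1∆ fkh2-dsm cells. Called under all 3 scalings and in 1 direction were 7. The left origin of chromosome II was one of these, with a log2 fold change of -2.95 ± 0.15 in FKH1 FKH2 cells and -0.80 ± 0.14 in fkh1∆ fkh2-dsm cells, where it had 13.0 and 14.2 times the mean in ctf19∆ fkh1∆ fkh2-dsm IP, against 26.1 and 20.6 without the CTF19 deletion. The right origin of chromosome XI went the other way, with -2.65 ± 0.15 in FKH1 FKH2 cells and -3.99 ± 0.18 in fkh1∆ fkh2-dsm cells, where it had 1.20 and 1.41 times the mean in ctf19∆ fkh1∆ fkh2-dsm IP, against 20.5 and 20.5 without the CTF19 deletion.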

How the data were processed

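QBU was measured in 10 strains with 2 replicates and an IP and a Total library for each, and the genotype labels set the groups. The files hold, as deposited by the authors, raw counts of reads in 50-bp bins of the 16 nuclear chromosomes, made with Bowtie2, SAMtools and bedtools per the submitters' processing notes, while versions and genome build are not given in the sources used here. A read is counted in each bin it overlaps, so neighbouring bins are not independent. ChIP-seq files were not used.

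Peaks were bins of at least 2 times the mean, highest within 5 kb on either side, in the mean of the 20 IP profiles smoothed by a running median over 21 bins. Of 172 peaks, 3 in or within 2 kb of the rDNA and 17 within 2 kb of a chromosome end were dropped. Each centromere was put in the middle of the gap between the flanking genes, which was 630 to 2541 bp wide. Counts in 500-bp windows (IP), 5-kb windows (Total) and 5-kb tiles were fitted with the quasi-likelihood test of edgeR (version 4.0.16) with strain alone in the model and library sizes summed over all bins, and p-values were adjusted over all origins or tiles. Alternatives were TMM, DESeq2 (version 1.42.0), the Total library size, other windows, tiles and peak sets, a filter on low counts, a replicate block and leaving out each replicate. The fits were tested on simulated data. R was version 4.3.3 and Python 3.11.15.

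The members and lists were chosen with earlier results of these data known. The text names every CEN-flanking origin, and of the other origins the 5 lowest and 5 highest log2 fold changes and those called lower under library sum, TMM and DESeq2 alike. Named outside this rule, after their values were seen, are the origins between CDC15 and PAU7 and between TDH2 and MET3 and the 100 bp without reads on chromosome III.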

Additional observations from a re-analysis of the deposited data

Results flagged for a closer look

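The effect of losing Ctf19 differed between FKH1 FKH2 cells and fkh1∆ fkh2-dsm cells at 15 of 32 CEN-flanking origins on the library sum, by edgeR's interaction test, which called 65.1% of all 152 origins. The fall was larger in FKH1 FKH2 cells at 13 of them and smaller at 2, while TMM gave 12 calls, 5 larger and 7 smaller, with 18.4% of all origins called. The difference of the log2 fold changes, the effect in FKH1 FKH2 cells minus that in fkh1∆ fkh2-dsm cells, passed under all 3 scalings at 7 of them. It was -2.15 (TMM -1.34) at the left origin of chromosome II, -1.80 (TMM -0.98) at the right origin of chromosome VIII, -2.09 (TMM -1.27) at the left origin of chromosome IX, -2.28 (TMM -1.45) at the left origin of chromosome XIII, -2.65 (TMM -1.82) at the right origin of chromosome XIV, each a larger fall in FKH1 FKH2 cells, and 0.62 (TMM 1.45) at the left origin of X and 1.34 (TMM 2.18) at the right origin of XI, each a larger fall in fkh1∆ fkh2-dsm cells. The second pair was shallow, with 469607 and 281531 counts in fkh1∆ fkh2-dsm IP.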

How the results depend on the processing

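Of 94 alternative values for 9 results, 77 stayed within the spread of the replicates or within 1.5 times the count. Among them the interaction count was 12 with TMM and 12 with DESeq2, but each split as 5 larger and 7 smaller falls in FKH1 FKH2 cells, against 13 and 2 on the library sum. The number of other origins called depended on the scaling, with 8 lower and 16 higher under TMM, 6 lower and 44 higher under DESeq2, and 4 higher in 1000-bp windows. Scaled by the depth of the matching Total library, IP counts gave edgeR 0 CEN-flanking origins and 0 other origins lower and 0 other origins higher, while 12 CEN-flanking and 3 other origins passed an unadjusted p of 0.05. The CEN-flanking median was then -2.29. That fit had no replicate term, and in WT and ctf19∆ the IP depth differed between replicates far more than the Total depth. Whether this accounts for the 0 calls was not tested. The 10-kb windows, chosen after seeing the data, gave 55 other origins lower and 17 higher and a CEN-flanking median of -2.18. After division of IP by Total in 5-kb windows the CEN-flanking origins of ctf19∆ reached 0.361 of the other origins, and those of WT 1.35. Of the 5-kb tiles, 246 were called higher with TMM and 249 with DESeq2, and in 2-kb tiles 168 near a centromere were lower and 2134 in the genome higher. Leaving out each replicate in turn gave 30 to 31 CEN-flanking origins lower, 66 to 83 other origins lower and 2 to 3 higher, a CEN-flanking median of -2.77 to -2.45, a ratio of 0.243 to 0.32, 76 to 82 tiles near a centromere lower, 852 to 1224 tiles higher, 12 to 16 CEN-flanking origins called in Total and 12 to 16 in the interaction test. At the origins, after division by the library mean, the deviations of the replicates of the 2 strains did not correlate (r = -0.04 in IP and 0.07 in Total). This measure cannot show a difference in depth, and replicate 1 was the deeper IP library in both strains. Whether replicates of the same number were handled together was not tested. With the replicate block, 30 CEN-flanking origins were called lower, 84 other origins lower and 2 higher, 84 tiles near a centromere lower and 1374 tiles higher, and 16 origins in Total and 15 in the interaction test. In the median origin window the second ctf19∆ IP library had 115.5 counts, and fkh1∆ fkh2-dsm IP had 102 and 61.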
